A study of Mus musculus with 17 samples.

Results

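Receptors through which innate lymphoid cells (ILC) are activated or restrained were followed across sorted blood cell progenitors of the mouse. The genes were given by name: Il18r1, Il18rap, Il17rb, Il12rb1, Il12rb2, Icos and Pdcd1. All 7 are measured, each by 1 probe set with 1 gene symbol, among 22180 genes. Expression was read on 17 Affymetrix Mouse Gene 2.0 ST arrays, and every value below is a log2 expression value, so that a difference of 1 is a doubling.

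The marrow populations were hematopoietic stem cells (HSC), multipotent progenitors primed for lymphoid fate (LMPP), flt3+ and flt3- common myeloid progenitors (CMP), common lymphoid progenitors (CLP), natural killer cells (NK) and the early innate lymphoid progenitor (EILP). The thymic populations were early progenitors (ETP) and, further along T cell development, DN3 thymocytes. Each population has 2 arrays, except EILP, which has 1. All were sorted from irradiated CD45-congenic B6 hosts that had been rebuilt with marrow of TCF-1 GFP reporter donors, and cells of several such chimeras were pooled. The labels give no age, no separate animals and, apart from flt3, no sorting markers, so a p-value covers no more than the spread between the samples here, which may be technical. In such bulk samples, a lower share of expressing cells and less RNA per cell cannot be told apart.

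Interleukin 18 (IL-18) binds a receptor of 2 chains, IL-18Rα (Il18r1) and the accessory chain IL-18Rβ (Il18rap), which signal through the adaptor MyD88. Interleukin 12 (IL-12) binds the chains encoded by Il12rb1 and Il12rb2 and acts through the transcription factor STAT4, and together with IL-18 it makes NK cells release interferon gamma. Il17rb encodes the chain that binds interleukin 25 (IL-25), a signal to type 2 innate lymphoid cells, and pairs with the chain of Il17ra. ICOS is a costimulatory and PD-1 (Pdcd1) an inhibitory receptor of the CD28 family, and PD-1 is known to mark committed ILC precursors.

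Marker genes were read in each population. Of 8 NK cell genes, all 8 were measured, and their mean was 9.11 and 9.39 in the NK arrays and at most 5.36 in the 15 others. The mean of the 3 measured CD3 genes was 10.95 and 10.89 in DN3, 6.69 and 6.84 in NK, and at most 4.96 elsewhere. In EILP the mean of 6 innate lymphoid progenitor genes was 7.39, just under the NK arrays at 7.47 and 7.56, and it was at most 6.61 elsewhere. Of these 6, 1 was called between EILP and CLP (0.365% of all genes). Tox averaged 7.25 in EILP but 8.13 in ETP and 8.30 in DN3, and Itga4 9.55 in EILP and 9.64 in ETP. Zbtb16, Nfil3, Id2 and Itgb7 read higher in the EILP array than the means of both thymic populations. Against ETP, 3 of the 6 genes were called higher in EILP and none lower (8.19% of all genes). Transcripts of neutrophils were high in all 13 marrow arrays, where the mean of 5 such genes lay between 10.31 and 11.96, and low in the 4 thymus arrays, between 4.13 and 5.56. The mean of 5 macrophage genes was 6.36 in EILP, 5.97 and 5.99 in CLP, and at most 5.78 elsewhere. Y-linked transcripts split the arrays, with means of 7.03 to 7.66 in the 5 CLP, EILP and DN3 arrays and 3.03 to 3.38 in the other 12. A comparison across that split, or between marrow and thymus, cannot be told apart from these differences.

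4 of the receptor transcripts varied widely. Population means spanned 5.95 log2 units for Il18r1, 5.27 for Il18rap, 4.43 for Il12rb2 and 4.21 for Il17rb, against a span of at least 3 in only 2.3% of all genes. Icos and Pdcd1 spanned 1.61 and 1.76, and Il12rb1 spanned 0.64. NK cells had the highest mean of Il18r1, Il18rap, Il12rb1 and Il12rb2, DN3 thymocytes that of Il17rb and Pdcd1, and ETP that of Icos. The leads of ETP over NK for Icos (0.05 ± 0.42) and of NK over EILP for Il12rb1 (0.10 ± 0.21) were not called. EILP was the highest population for none of the 7 and the second highest for Il18r1, Il18rap, Il12rb1 and Pdcd1. In these, its 1 array stood above the mean of the next population by 0.50, 0.07, 0.15 and 0.17, and none of these gaps was called.

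**Figure D1:**
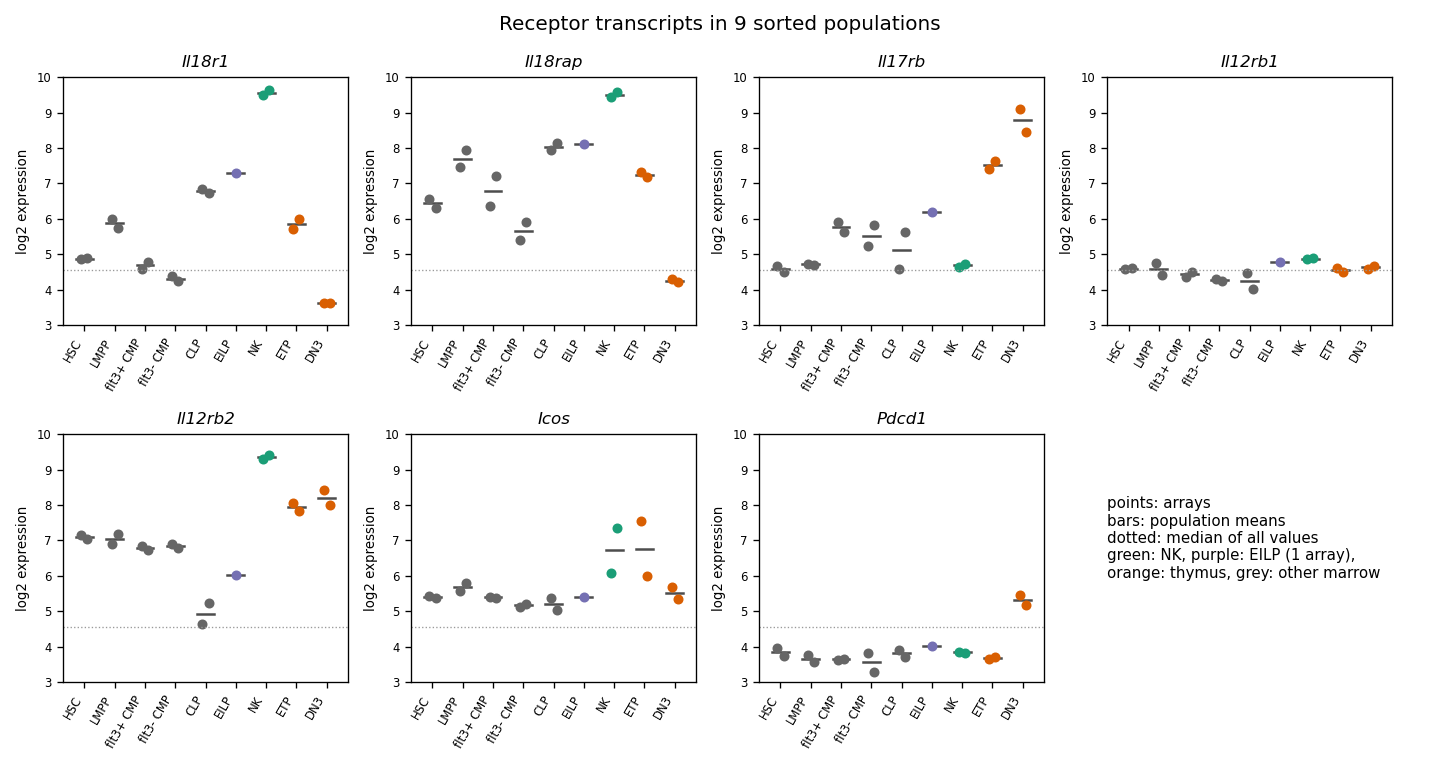
Log2 expression of each receptor gene (vertical axis) in each population (horizontal axis). Points are arrays, bars are population means and the dotted line is the median of all values, 4.54. Il18r1, Il18rap and Il12rb2 stand highest in NK, Il17rb and Pdcd1 in DN3, and Il12rb1 stays between 4.01 and 4.90.

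The receptor genes were tested in 10 comparisons, each over all 22180 genes. Between EILP and CLP none of the 7 was called at an adjusted p under 0.05 in the limma fit, where 0.365% of all genes were. At an unadjusted p under 0.05, 4 of them passed there. The share of all genes at that looser threshold was not counted, so no result about the receptor genes is drawn from it. Against LMPP, EILP differed in 3 receptor genes (2 higher, 1 lower; 3.9% of all genes). Without either LMPP array, only 1 of the 3 calls, that of Il18r1, was left. Against NK, EILP differed in 4 (1 higher, 3 lower; 3.48% of all genes), and in 2 without either NK array. Against ETP it differed in 3 (1 higher, 2 lower; 8.19% of all genes).

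CLP differed from LMPP in 2 receptor genes, 1 higher and 1 lower, where 5.96% of all genes were called. NK cells were higher than LMPP in 3 and lower in none (6.72% of all genes). ETP were higher than LMPP in 2 (3.42% of all genes), and in 1 without ETP replicate 1 or without either LMPP array. DN3 differed from ETP in 4, 2 in each direction (8.73% of all genes). LMPP were higher than HSC in 2 (0.6% of all genes), a count that fell to 1 without LMPP replicate 2 and to 0 without LMPP replicate 1 or either HSC array. None was called between flt3+ and flt3- CMP, where 0.108% of all genes were called. Il18r1 and Il18rap had an unadjusted p under 0.05 there, a threshold at which the share of all genes was not counted.

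The median difference of the 7 receptor genes was 0.50 between EILP and CLP (0.05 over all genes), -1.33 between EILP and NK (-0.05 over all genes) and 1.03 between NK and LMPP (0.05 over all genes). In the other 7 comparisons it lay between 0.03 and 0.37. These comparisons share populations and are not independent of each other.

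**Figure D2:**
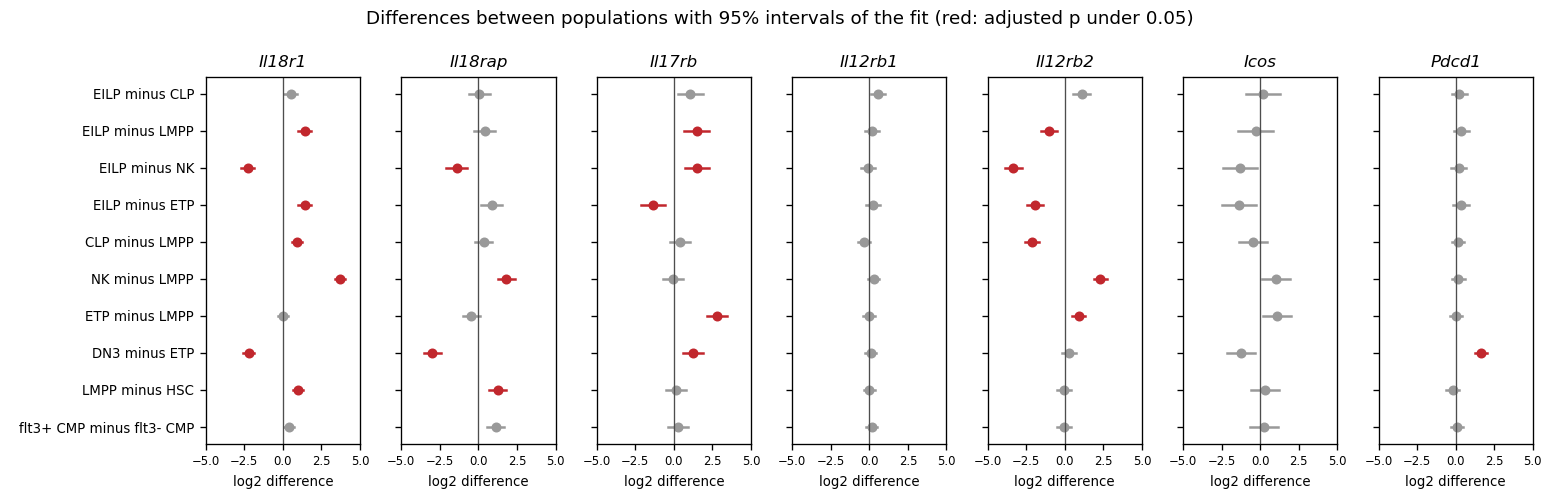
Log2 difference (horizontal axis) of each receptor gene in the 10 comparisons (vertical axis), with the 95% interval of the fit. Red marks an adjusted p under 0.05 over all genes. Il18r1 was called in 7 of the comparisons and Il12rb1 and Icos in none.

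IL-18 receptor transcripts were highest in NK cells and lowest in DN3 thymocytes, with CLP and EILP next to NK. Il18r1, the ligand-binding chain, read 9.50 and 9.63 in NK, 7.28 in EILP and 6.85 and 6.72 in CLP. It read 5.99 and 5.75 in LMPP, 5.70 and 6.0 in ETP, 4.87 and 4.88 in HSC, 4.59 and 4.78 in flt3+ CMP, 4.39 and 4.23 in flt3- CMP, and 3.61 and 3.63 in DN3. The NK arrays lay above all others and the DN3 arrays below all others, and the EILP array lay above both CLP arrays.

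Il18r1 was higher in NK than in LMPP by 3.70 ± 0.16 (SE, n = 2 against 2, 13-fold, adjusted p = 4.3e-09). EILP was 4.88-fold below NK (-2.29 ± 0.19, n = 1 against 2, adjusted p = 8.5e-06) and 2.66-fold above LMPP (1.41 ± 0.19, adjusted p = 0.00093). CLP was 1.88-fold above LMPP (0.91 ± 0.16, adjusted p = 0.003). EILP and CLP were not separated, at 0.50 ± 0.19 (adjusted p = 0.47, 95% interval 0.08 to 0.91). Across EILP, CLP and LMPP the neutrophil genes moved the same way, with means of 11.96 in EILP, 11.78 and 11.90 in CLP, and 11.16 and 11.12 in LMPP. In NK, where Il18r1 was highest, they were at 11.26 and 11.45, below EILP and CLP. In ETP, where Il18r1 averaged 5.85 against 5.87 in LMPP, they were at 5.56 and 5.04. The part of the neutrophil genes in the Il18r1 differences was not tested.

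In the order of the Il18r1 means, the steps from NK to EILP, from CLP to LMPP, from ETP to HSC and from flt3- CMP to DN3 were called. The step from ETP to HSC was 0.98 ± 0.16 (adjusted p = 0.0015; 5.6% of all genes were called between these populations). The last, 0.69 ± 0.16 (adjusted p = 0.014; 6.84% of all genes), was lost without flt3- CMP replicate 1 (adjusted p = 0.14) and without either DN3 array. EILP and CLP, LMPP and ETP, HSC and flt3+ CMP, and the 2 CMP populations were neighbours whose difference was not called. LMPP were above HSC by 0.99 ± 0.16 (adjusted p = 0.0083), a call lost without LMPP replicate 1 or either HSC array.

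Il18rap, the signalling partner chain, read 9.44 and 9.58 in NK, 8.12 in EILP, 7.93 and 8.15 in CLP, and 7.45 and 7.95 in LMPP. It read 7.32 and 7.17 in ETP, 6.37 and 7.20 in flt3+ CMP, 6.57 and 6.31 in HSC, 5.40 and 5.90 in flt3- CMP, and 4.30 and 4.2 in DN3. NK again lay above and DN3 below all other arrays, while the EILP value fell between those of CLP.

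Il18rap was higher in NK than in LMPP by 1.81 ± 0.26 (3.52-fold, adjusted p = 0.00061). EILP lay below NK by -1.40 ± 0.32 (adjusted p = 0.027), which missed the threshold without NK replicate 1 (adjusted p = 0.0549) or NK replicate 2 (adjusted p = 0.094). Between EILP and LMPP, where Il18r1 was called, Il18rap differed by 0.42 ± 0.32 (adjusted p = 0.67). Whether the chains differ in this step was not tested. LMPP were above HSC by 1.26 ± 0.26 (adjusted p = 0.0465), a call lost when any one of these 4 arrays was left out. At the other end of the order, flt3- CMP stood above DN3 by 1.40 ± 0.26 (adjusted p = 0.0033), lost without flt3- CMP replicate 2 (adjusted p = 0.059). The 6 steps between EILP and flt3- CMP were not called.

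Both chains were lower in DN3 than in ETP, the 2 thymic stages. Il18rap fell by 3.0 ± 0.26 (7.99-fold, adjusted p = 4.9e-06) and Il18r1 fell by 2.23 ± 0.16 (4.71-fold, adjusted p = 6.4e-07). The DN3 values of both were dim, under the all-value median of 4.54, and the size of these falls is uncertain. Across the 9 population means the chains correlated at r = 0.94, and across the 17 arrays at r = 0.92. Arrays of 1 population share their source, so these values are descriptions.

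**Figure D3:**
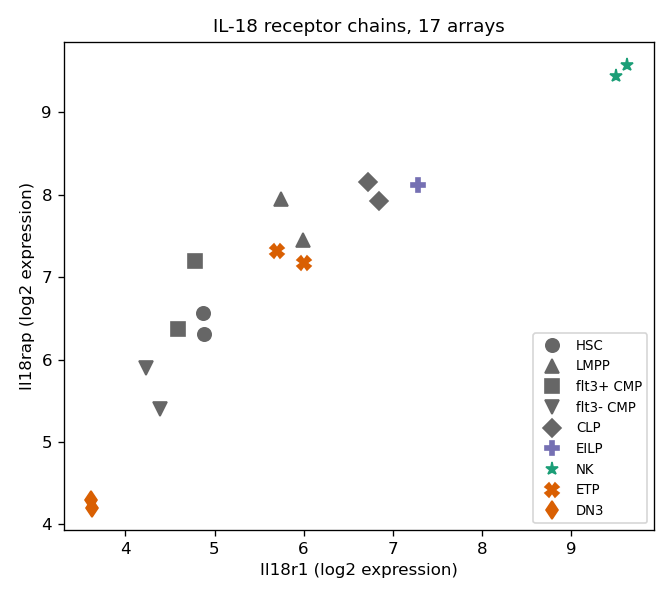
Il18r1 (horizontal axis) against Il18rap (vertical axis), both in log2 expression, with 1 point per array. DN3 lies at the lower left, near 3.62 and 4.25, and NK at the upper right, near 9.57 and 9.51, with CLP and EILP between NK and the other progenitors.

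The 2 genes lie next to each other on chromosome 1, and the bases before their starts are shown because their transcripts shared the highest and the lowest population. They are from RefSeq (GRCm38.p6, both on the plus strand, 5′ to 3′). For Il18r1, only the 133 bases between the end of the neighbouring gene Il1rl1 and the first listed start are given, chr1:40465419-40465551. For Il18rap, they are the 250 bases before its start, chr1:40515112-40515361. Capitals mark matches to the motifs named after the sequences.

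Il18r1: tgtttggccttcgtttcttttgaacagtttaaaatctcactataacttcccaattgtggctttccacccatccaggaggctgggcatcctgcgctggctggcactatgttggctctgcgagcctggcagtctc

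Il18rap: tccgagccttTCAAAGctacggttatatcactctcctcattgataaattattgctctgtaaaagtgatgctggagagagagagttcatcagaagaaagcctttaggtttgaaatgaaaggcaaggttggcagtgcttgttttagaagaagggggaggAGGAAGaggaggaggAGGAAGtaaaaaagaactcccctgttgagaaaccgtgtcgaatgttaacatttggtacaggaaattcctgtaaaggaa

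Searched on both strands were GGTGTGA for T-box factors, TGTGGT for Runx, AGATAA for GATA-binding factors, AGGAAG for ETS, TTCNNNGAA for STAT, CTTTGA for TCF and CAGCTG for an E-box. The Il18r1 stretch held none of them. The Il18rap stretch held the ETS letters 2 times, starting at -93 and -78, and the TCF letters once, at -240 from the start. The ETS letters occur in 29.2% and the TCF letters in 14% of all promoters at this length. A match is a description of these letters, not of binding.

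The same stretch of chromosome 1 holds other receptors of the interleukin 1 (IL-1) family in the order Il1r2, Il1r1, Il1rl2, Il1rl1, Il18r1, Il18rap, and these followed other orders of populations. Il1r1, the signalling IL-1 receptor, read 9.18 and 9.18 in LMPP and 9.29 and 9.64 in ETP but 4.34 and 4.58 in NK. It was lower in NK than in LMPP by -4.72 ± 0.31 (adjusted p = 3.2e-07), opposite in sign to both IL-18 receptor chains. Il1r2, a decoy receptor that binds IL-1 without signalling, read 8.33 in EILP and 7.35 and 7.81 in CLP, above all other arrays. It was higher in EILP than in LMPP by 2.72 ± 0.31 (adjusted p = 0.00031) and in CLP than in LMPP by 1.96 ± 0.26 (adjusted p = 0.00041). The means of the neutrophil and of the macrophage genes were also highest in the EILP and CLP arrays. Their part in the Il1r2 differences was not tested. Il1rl2 varied little, between 3.91 and 5.01, and Il1rl1, which encodes the ST2 receptor chain, was not analysed here.

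**Figure D4:**
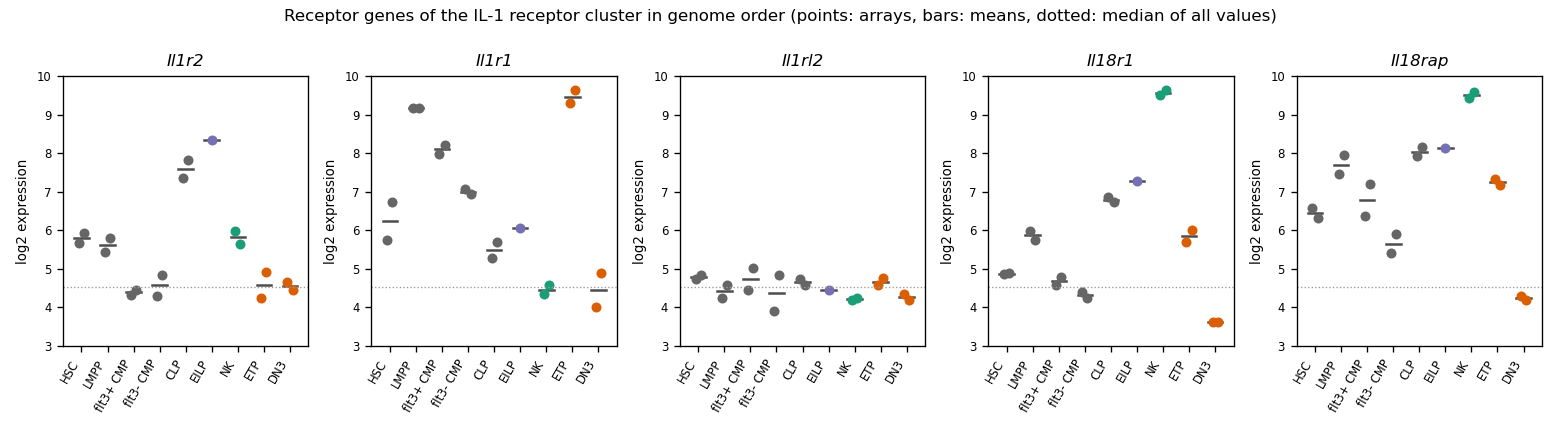
Log2 expression (vertical axis) of 5 receptor genes of the IL-1 receptor cluster in their order along chromosome 1, by population. Points are arrays, bars means, and the dotted line the median of all values. Il1r1 is highest in ETP and LMPP, Il1r2 in EILP and CLP, and both IL-18 receptor genes in NK.

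Other genes of the IL-18 and IL-1 pathway came from a list of 15, of which 13 were measured. In NK against LMPP 1 was higher and 2 lower (6.72% of all genes called), and in DN3 against ETP 2 were lower (8.73%). EILP had 1 higher and 3 lower against LMPP (3.9%), 3 higher against NK (3.48%), and 2 higher and 3 lower against ETP (8.19%). CLP had 1 higher and 2 lower against LMPP (5.96%), ETP had 2 lower against LMPP (3.42%), and LMPP had 1 higher against HSC (0.6%). Il18 itself, the ligand, averaged 7.04 in LMPP, 6.80 in HSC and 6.76 in ETP, and 4.32 to 4.94 in the 6 others. It was lower in EILP than in LMPP by -2.25 ± 0.51 (adjusted p = 0.024, but 0.084 and 0.089 without LMPP replicate 1 or 2) and in DN3 than in ETP by -2.40 ± 0.41 (adjusted p = 0.0021). Myd88, the adaptor, varied from 5.49 to 6.80 and was called in none of the 10 comparisons. Il1rap, the accessory chain of the IL-1 receptor, also varied little, from 4.43 to 5.40.

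Among the signalling genes, Irak2, a kinase of the MyD88 pathway, was higher in NK than in LMPP by 1.10 ± 0.17 (adjusted p = 0.001). Irak3, an inhibitor of that pathway, read 7.44 in EILP and was above NK by 2.38 ± 0.42 (adjusted p = 0.0054) and above ETP by 3.13 ± 0.42 (adjusted p = 0.00026). The part of neutrophil and macrophage transcripts in the Irak3 differences was not tested. Sigirr, another inhibitory member of the receptor family, was lower in EILP than in LMPP by -1.25 ± 0.26 (adjusted p = 0.016, but 0.087 without LMPP replicate 2). Between EILP and CLP none of the 13 was called, where 0.365% of all genes were.

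Across the 17 arrays, 3 of 4015 variable genes were most like Il18r1: Sp100 (r = 0.964), a nuclear body protein, Mef2a (r = 0.944), a transcription factor, and Id2 (r = 0.941), an inhibitor of E proteins that innate lymphoid cells require. Id2 averaged 9.99 in NK, 8.44 in EILP and 7.57 in CLP. The genes most like Il18rap were Il18r1 itself (r = 0.924), Clnk (r = 0.923) and Pik3ap1 (r = 0.919), both adaptors of immune receptors. These correlations describe these arrays and carry no test.

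Of the 2 IL-12 receptor chains, Il12rb2, the chain that docks STAT4, was high in NK and thymus and low in CLP. It read 9.31 and 9.40 in NK, 8.41 and 8.0 in DN3, 8.06 and 7.84 in ETP, 7.15 and 7.03 in HSC, and 6.90 and 7.19 in LMPP. In the CMP it read 6.85 and 6.72 (flt3+) and 6.89 and 6.78 (flt3-), then 6.03 in EILP and 4.63 and 5.22 in CLP. The NK arrays lay above and the CLP arrays below all others, and EILP lay between CLP and every other array.

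Il12rb2 was lower in CLP than in LMPP by -2.12 ± 0.20 (4.34-fold, n = 2 against 2, adjusted p = 3.6e-05). EILP lay below LMPP by -1.02 ± 0.25 (2.02-fold, n = 1 against 2, adjusted p = 0.038), a call lost without LMPP replicate 1 (adjusted p = 0.058) or LMPP replicate 2 (-0.87, adjusted p = 0.18), and with arrays centred on their medians (-1.01, adjusted p = 0.0535). It lay 10-fold below NK (-3.33 ± 0.25, adjusted p = 2.9e-06) and 3.79-fold below ETP (-1.92 ± 0.25, adjusted p = 0.00021). Between EILP and CLP the difference was 1.10 ± 0.25, with a 95% interval of 0.56 to 1.64, and did not pass over all genes (adjusted p = 0.12). NK exceeded CLP by 4.43 ± 0.20 (adjusted p = 1.2e-08; 6.39% of all genes were called between these populations) and LMPP by 2.31 ± 0.20 (4.96-fold, adjusted p = 7.2e-06).

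In the order of the Il12rb2 means, NK stood above DN3 by 1.15 ± 0.20 (adjusted p = 0.0017; 12.5% of all genes were called there). ETP stood above HSC by 0.86 ± 0.20 (adjusted p = 0.024), which was lost without any one of these 4 arrays (adjusted p up to 0.14). ETP exceeded LMPP by 0.91 ± 0.20 (adjusted p = 0.025), with the same loss (adjusted p up to 0.22). DN3 and ETP were not separated (0.26 ± 0.20, adjusted p = 0.54). The steps from HSC to LMPP, the CMP populations and EILP were not called either.

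The 250 bases before the RefSeq start of Il12rb2 are shown as those of the IL-12 receptor chain with the wider span of means (GRCm38.p6, chr6:67376189-67376438, minus strand, 5′ to 3′), with the motif match in capitals.

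Il12rb2: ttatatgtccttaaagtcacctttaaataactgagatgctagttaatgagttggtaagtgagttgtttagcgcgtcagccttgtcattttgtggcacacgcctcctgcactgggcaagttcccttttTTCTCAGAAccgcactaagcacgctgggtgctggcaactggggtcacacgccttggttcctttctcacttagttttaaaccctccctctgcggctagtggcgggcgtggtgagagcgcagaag

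The stretch held the STAT letters TTCNNNGAA once, starting at -123, and none of the 6 other motifs. At this length 7.2% of all promoters hold the STAT letters. No sequence is shown for Il12rb1.

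Il12rb1, the chain that the IL-12 receptor shares with the receptor of Il23r, ranged from 4.01 in a CLP array to 4.90 in an NK array, with 8 of 17 arrays below the median of all values. It read 4.85 and 4.90 in NK and 4.78 in EILP. The NK arrays lay above all others by a small margin. It was called in none of the 10 comparisons, and EILP and NK differed by -0.10 ± 0.21 (95% interval -0.54 to 0.35). NK exceeded CLP by 0.64 ± 0.17 (adjusted p = 0.038) and flt3- CMP by 0.60 ± 0.17 (adjusted p = 0.035; 11.9% of all genes were called between them). Both calls were lost when the arrays were centred on their medians, at 0.50 (adjusted p = 0.1) and 0.54 (adjusted p = 0.0526). They were also lost without either NK array, the first without CLP replicate 2 and the second without either flt3- CMP array.

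Of 12 other genes of the IL-12 family, 11 were measured. Stat4, the transcription factor of the pathway, read 10.42 and 10.83 in NK, 9.56 and 9.83 in ETP, 8.04 in EILP, and 7.92 and 8.53 in CLP. It was higher in NK than in LMPP by 1.5 ± 0.23 (adjusted p = 0.0011) and lower in EILP than in NK by -2.58 ± 0.28 (adjusted p = 0.00011). CLP lay below LMPP by -0.89 ± 0.23 (adjusted p = 0.036), a call lost without CLP replicate 1 (-0.59, adjusted p = 0.33) or either LMPP array, and with arrays centred on their medians (adjusted p = 0.062).

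Il12a, which encodes the p35 subunit of IL-12, averaged 8.64 in LMPP, 6.75 in HSC, 6.71 in EILP and 5.6 in NK. It was lower in NK than in LMPP by -3.05 ± 0.29 (adjusted p = 1.8e-05) and in DN3 than in ETP by -3.06 ± 0.29 (adjusted p = 1.5e-05), and higher in LMPP than in HSC by 1.90 ± 0.29 (adjusted p = 0.0077). The last call was lost without LMPP replicate 2 (adjusted p = 0.096) or HSC replicate 1 (adjusted p = 0.11). Ebi3, a subunit of related cytokines, was lower in NK than in LMPP by -1.25 ± 0.26 (adjusted p = 0.011, but 0.0515 without NK replicate 2 and 0.1 without LMPP replicate 1) and in DN3 than in ETP by -2.03 ± 0.26 (adjusted p = 0.00022). Il12b, the p40 subunit, stayed between 3.27 and 3.82, and Il23r, a receptor chain whose gene lies next to Il12rb2, between 2.48 and 3.23. Both are below the median of all values in every array.

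The genes most like Il12rb2 across the 17 arrays were Tnik (r = 0.942), a kinase of the Wnt pathway, Itm2a (r = 0.894), a membrane protein, and Cysltr2 (r = 0.873), a leukotriene receptor. All 3 had their highest mean in NK and their lowest in CLP.

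Il17rb followed another order, with its highest values in thymus and EILP next. It read 9.11 and 8.46 in DN3, 7.42 and 7.64 in ETP, and 6.18 in EILP. In the other populations it read 5.90 and 5.63 (flt3+ CMP), 5.22 and 5.81 (flt3- CMP), 4.59 and 5.63 (CLP), 4.73 and 4.69 (LMPP), 4.65 and 4.71 (NK), and 4.66 and 4.49 (HSC). The thymus arrays lay above all marrow arrays, EILP lay above the 12 other marrow arrays, and the CLP arrays differed from each other by 1.05.

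ETP exceeded LMPP in Il17rb by 2.82 ± 0.30 (7.07-fold, adjusted p = 7.1e-05), and DN3 exceeded ETP by 1.25 ± 0.30 (2.39-fold, adjusted p = 0.018). The latter was lost without DN3 replicate 1 (0.93, adjusted p = 0.17) or ETP replicate 1 (adjusted p = 0.084). EILP exceeded LMPP by 1.47 ± 0.37 (2.77-fold, n = 1 against 2, adjusted p = 0.042) and NK by 1.5 ± 0.37 (2.83-fold, adjusted p = 0.041), and lay below ETP by -1.35 ± 0.37 (adjusted p = 0.037). Each of these 3 calls rests on the spread of other populations for its single EILP array. The first was lost without either LMPP array (adjusted p = 0.12 and 0.14), the second without either NK array and the third without either ETP array.

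Between EILP and CLP, Il17rb differed by 1.07 ± 0.37 (95% interval 0.27 to 1.86, adjusted p = 0.39). From EILP down to HSC, no step of the order was called. The single EILP array thus held Il17rb above and Il12rb2 below LMPP and NK, while Il18r1 lay above LMPP and below NK. The Il17rb calls against LMPP and NK, and the Il12rb2 call against LMPP, were lost under some alternatives. The Il18r1 calls and the Il12rb2 call against NK were kept under every alternative.

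IL-25 acts through a pair of chains, and the partner Il17ra was measured at 7.57 to 8.82, with no call in the 10 comparisons. The ligand Il25 stayed between 4.80 and 5.50. Of the 7 other genes of this family all were measured, and only Traf3ip2, which encodes the adaptor Act1, was called. It was lower in EILP than in LMPP by -1.58 ± 0.26 (adjusted p = 0.0038), than in NK by -1.80 ± 0.26 (adjusted p = 0.0013) and than in ETP by -1.83 ± 0.26 (adjusted p = 0.00046). CLP lay below LMPP by -0.93 ± 0.21 (adjusted p = 0.019), which was lost without CLP replicate 1 (adjusted p = 0.18) or either LMPP array.

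The measured markers of type 2 innate lymphoid cells were low. Of 8, 5 were measured (Klrg1, Il5, Il13, Arg1 and Il9r). Il1rl1, Areg and Ptgdr2 were not, so nothing is known here of their levels. The mean of the 5 was 4.22 to 4.95 in all 17 arrays, 4.47 in EILP and 4.37 and 4.45 in DN3. The highest mean, in NK, went with Klrg1 at 5.89, a receptor that mature NK cells also carry. The genes most like Il17rb were Notch1 (r = 0.927), the receptor that starts T cell development, Scin (r = 0.926), an actin-severing protein, and Cd5 (r = 0.904), a surface protein of T cells. All 3 had their highest mean in DN3.

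Of the CD28 family members, Icos lay above the median of all values in every array, and Pdcd1 lay below it in every marrow array. Icos read 7.55 and 5.98 in ETP and 6.09 and 7.34 in NK, 5.69 and 5.33 in DN3, 5.56 and 5.80 in LMPP, and 5.39 in EILP. The other 8 arrays, of HSC, CMP and CLP, lay between 5.03 and 5.43. The 2 arrays of NK and of ETP stood 1.24 and 1.58 apart, more than those of 99.1% and 99.6% of all genes in the same populations. In each, 1 array lay near the LMPP values and the other far above them.

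Icos passed in none of the 10 comparisons. ETP minus LMPP was 1.09 ± 0.42 (adjusted p = 0.24) and 1.88 without ETP replicate 2 (adjusted p = 0.015). DN3 minus ETP was -1.25 ± 0.42 (adjusted p = 0.091) and -2.04 without that array (adjusted p = 0.0049). EILP minus ETP, at -1.38 ± 0.52 (adjusted p = 0.14), was called without it too, at -2.17 (adjusted p = 0.0076). NK minus LMPP, at 1.03 ± 0.42 (adjusted p = 0.18), was called without NK replicate 1, at 1.66 (adjusted p = 0.044).

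Among the other pairs, Icos was higher in ETP than in flt3- CMP (1.61 ± 0.42, adjusted p = 0.024; 12.3% of all genes were called) and CLP (1.57 ± 0.42, adjusted p = 0.025; 13.1% of all genes). Both were lost without ETP replicate 1, at 0.82 (adjusted p = 0.18) and 0.78 (adjusted p = 0.19), and without either array of flt3- CMP or CLP. NK exceeded flt3- CMP by 1.56 ± 0.42 (adjusted p = 0.029) and CLP by 1.52 ± 0.42 (adjusted p = 0.0493). The call against CLP was also lost with arrays centred on their medians (1.37, adjusted p = 0.082), and both were lost without NK replicate 2 (adjusted p = 0.24 and 0.3) or without either array of the other population. The size of the Icos difference thus depends on which array of ETP or NK is read. The mean of the 3 CD3 genes was 4.59 in ETP replicate 1 and 4.96 in replicate 2, and 6.69 and 6.84 in the NK arrays. The mean of 5 mature T cell genes was 4.36 and 4.61 in ETP and 4.29 and 4.27 in NK. The part of such cells in the Icos values was not tested.

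Pdcd1 was above the median of all values in DN3 only, at 5.45 and 5.18. The 15 other arrays lay between 3.27 and 4.02, and the highest of them was EILP. DN3 exceeded ETP by 1.63 ± 0.19 (3.09-fold, n = 2 against 2, adjusted p = 7.6e-05) and EILP by 1.29 ± 0.23 (adjusted p = 0.0021; 10.2% of all genes were called between DN3 and EILP). Since the lower side is dim in each case, the size of these differences is uncertain. EILP was not separated by this test from CLP (0.22 ± 0.23, 95% interval -0.27 to 0.72), LMPP (0.37 ± 0.23, 95% interval -0.13 to 0.86) or NK (0.19 ± 0.23, 95% interval -0.30 to 0.68). A difference of 1 or more lies outside all 3 intervals, although on dim values the array can understate a change.

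**Figure D5:**
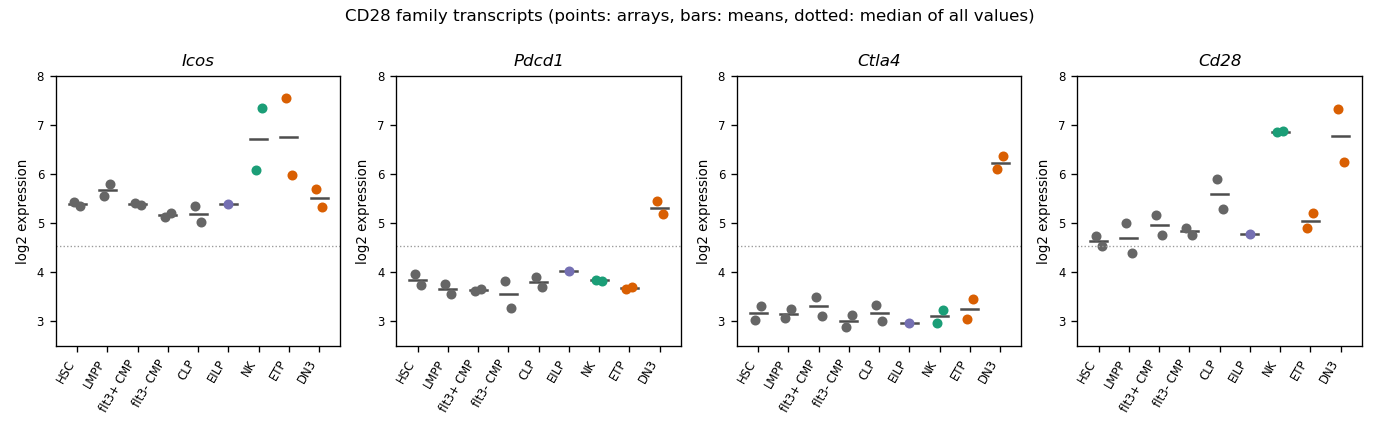
Log2 expression (vertical axis) of 4 CD28 family genes by population. Points are arrays, bars means, and the dotted line the median of all values. Pdcd1 and Ctla4 stand out in DN3, Cd28 in NK and DN3, and the 2 Icos arrays of NK and of ETP lie far apart.

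Ctla4, an inhibitory receptor whose gene lies next to Icos, showed the pattern of Pdcd1 rather than that of its neighbour, with 6.10 and 6.37 in DN3 and at most 3.49 elsewhere. It was higher in DN3 than in ETP by 2.99 ± 0.21 (adjusted p = 6e-07). Cd28, the costimulatory receptor that lies on the other side of Ctla4, read 7.32 and 6.25 in DN3 and 6.86 and 6.87 in NK. It was higher in DN3 than in ETP by 1.73 ± 0.31 (adjusted p = 0.0028) and in NK than in LMPP by 2.16 ± 0.31 (adjusted p = 0.00067), and lower in EILP than in NK by -2.09 ± 0.38 (adjusted p = 0.0072).

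Btla, another inhibitory receptor, was higher in EILP than in ETP by 1.5 ± 0.31 (adjusted p = 0.0083), and in LMPP than in HSC by 1.28 ± 0.26 (adjusted p = 0.042). The latter was lost without either LMPP array or HSC replicate 1 (adjusted p up to 0.4). Cd80, a ligand of CD28 and CTLA-4, was at 5.82 in EILP, above LMPP by 1.35 ± 0.29 (adjusted p = 0.02, but 0.099 without LMPP replicate 2) and above ETP by 1.37 ± 0.29 (adjusted p = 0.0091). The part of neutrophil and macrophage transcripts in the Cd80 differences was not tested. Icosl, which encodes the ICOS ligand, averaged from 4.62 in flt3+ CMP to 5.70 in CLP. Of the PD-1 ligand genes, Cd274 averaged from 4.97 in CLP to 6.19 in HSC, and Pdcd1lg2 read between 3.96 and 5.53. None of the 3 was called in the 10 comparisons. All 8 genes of this list were measured, and none was called between EILP and CLP, where 0.365% of all genes were.

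The genes most like Icos were Cd160 (r = 0.871), Setbp1 (r = 0.832) and Fasl (r = 0.826), of which Cd160 encodes a receptor and Fasl a death ligand of cytotoxic cells. Those most like Pdcd1 were Wdr78 (r = 0.961), Bcl11b (r = 0.956), a transcription factor of T lineage commitment, and Fam169b (r = 0.953), all with their highest mean in DN3.

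Of 11 effector genes 10 were measured. In NK against LMPP 4 were higher and none lower, where 6.72% of all genes were called, and the median difference was 0.30 against 0.05 over all genes. Of the 4, Gzmb and Prf1 also belong to the NK cell marker genes. Ifng, which encodes interferon gamma, read 7.70 and 6.96 in NK and at most 3.70 elsewhere, and differed by 4.05 ± 0.23 (adjusted p = 6.6e-08). Csf2, which encodes a myeloid growth factor, differed by 1.46 ± 0.25 (adjusted p = 0.0027). The cytotoxic genes Gzmb and Prf1 differed by 5.24 ± 0.31 and 2.92 ± 0.23.

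In EILP, Ifng was at 3.46, lower than in NK by -3.87 ± 0.28 (adjusted p = 1.7e-06). None of the 10 effector genes was called between EILP and CLP (0.365% of all genes) or LMPP (3.9% of all genes). The type 2 cytokine genes Il5 and Il13 lay between 3.52 and 4.38 and between 4.24 and 4.96 in all 17 arrays, also where Il17rb was high. Tnf, an inflammatory cytokine, was higher in CLP than in LMPP by 1.17 ± 0.29 (adjusted p = 0.027), a call lost without any one of these 4 arrays (adjusted p up to 0.21).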

How the data were processed

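Cells of 9 sorted populations were read on 17 arrays. The authors deposited log2 expression values per probe set (41345 probe sets). Per the submitters' processing notes they used Affymetrix Expression Console, with version, background correction and scaling not given in the sources used here, so that their effect on these values is unknown. The log2 unit was read from the deposited values, which lie between 1.58 and 13.77, with array medians of 4.45 to 4.62. On dim values the array can understate a difference.

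Probe sets were named from the platform annotation: 23521 have 1 gene symbol, 1814 several and 16010 none, and only the first were used. For the 1082 genes with several, the probe set with the highest mean was kept, leaving 22180 genes. A limma 3.58.1 model (R 4.3.3) with 1 mean per population was fitted to all 17 arrays (8 residual and 5.33 prior degrees of freedom), so the lone EILP array is assumed to vary like the others. Tests are two-sided, and calls were made where the p adjusted by Benjamini-Hochberg across the 22180 genes of a comparison was under 0.05. All 36 pairs of populations served for the order of levels. The number of arrays limits the precision, with a median SE over genes of 0.24 where EILP is involved and 0.20 elsewhere. The fit was checked on simulated arrays of this design among 22180 genes: of 100 genes changed by 2 log2 units, 99% were recovered for NK minus LMPP and 100% for EILP minus CLP, and of 100 changed by 1, 67% and 40%. Among the unchanged genes, 10 and 6 were called. Unchanged genes had the same mean in every population, and the noise followed the fitted variances. The check therefore cannot show whether the lone EILP array varies like the others.

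The genes described and the pathway lists were chosen with earlier results of these data known. Named genes are the 7 receptor genes, list genes called with a difference of at least 1 or acting as partner chain, ligand, adaptor or transcription factor, and the 3 genes most like each receptor gene with means spanning at least 1 (Pearson r over 17 arrays, among genes spanning at least 1 and reaching 6, without predicted genes, small RNA genes, LOC names and antigen receptor segments). Il1rl2, Klrg1, Pdcd1lg2, Il5 and Il13 fall outside this rule and were chosen after their values were seen. Sequences are from RefSeq (GRCm38.p6). The alternatives were array centring, quantile normalization, a filter on dim genes, the mean of probe sets, all probe sets, fits to fewer arrays, each replicate left out, a replicate block, and trended robust moderation.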

Additional observations from a re-analysis of the deposited data

How the results depend on the processing

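Followed call by call were 36 called differences of the receptor genes, those of the 10 comparisons and of further pairs described above. They are a chosen part of the 114 called contrasts given below. Of these 36, 17 kept their call under every alternative run. Of 57 called differences of pathway genes, put through the same alternatives after seeing the data, 32 kept their call and 20 were lost without some replicate. None of either changed direction. The EILP minus LMPP count of 3 receptor genes became 1 with all probe sets tested, and 1 to 1 over the replicates left out. The EILP minus NK count of 4 became 2 with all probe sets tested, 2 with only these populations in the fit, and 2 to 2 over the replicates left out. The ETP minus LMPP count of 2 became 1 with all probe sets, 1 with only these populations, and 1 to 2 over the replicates left out. The LMPP minus HSC count of 2 became 1 with arrays centred, 1 with all probe sets, 0 with only these populations (29 genes called in all), 1 with the arrays low in Y-linked transcripts, and 0 to 1 over the replicates left out. In the 6 other comparisons the counts stayed within 1.5 times. Of 252 contrasts of a receptor gene between 2 populations, 114 were called. Over all genes, the share called lay between 0.108% and 13.1% in the 36 pairs. The calls were uneven, from 2 of 36 pairs for Il12rb1 to 31 of 36 for Il18r1. The count of 114 became 95 to 117 under the other settings on all arrays, and 104 to 119 over the replicates left out. Fewer calls with all probe sets go with the larger number of tests. For the other losses the cause was not tested.

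Replicate numbers did not pair the arrays, as deviations of same-numbered arrays correlated at -0.07 to 0.09 over 28 pairs of populations. With the number as a replicate block, 113 of the 252 contrasts were called, and Il17rb in EILP minus LMPP (1.47, adjusted p = 0.0502) and Icos in NK minus CLP (1.52, adjusted p = 0.059) were lost. Fits to 1 side of the Y-linked split could not be made for comparisons that cross it.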
